A study of Mus musculus with 142 samples.

Results

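∆A.COSN123 is an F121-9 mouse embryonic stem cell genotype in which 4 sites of the Dppa2/4 replication domain were removed from the same homolog: the whole of element A and the 3 OSN sites of element C. Its profiles were taken as every pair of alleles labelled with that genotype, which gave 4 clones (B7, C9, D8 and H10) and 4 pairs of profiles out of 138 single-allele profiles in the table, from 8 of the 142 early and late fraction samples. F121-9 cells are hybrids that carry 1 musculus and 1 castaneus (CAST) homolog of each chromosome, and they were grown in 2i + LIF. In all 4 clones the deletions lie on the musculus homolog and the CAST homolog is unmodified. Cells were labelled with BrdU for 2 h and sorted into early and late S phase, and the labelled DNA of both fractions was sequenced (E/L Repli-seq). Each value is the log2 ratio of early over late reads (RT) of 1 homolog in a 50 kb window, above 0 for windows copied mainly early and below 0 for those copied mainly late. Profiles of 3 related genotypes were set beside it: ∆COSN123, which lacks only the 3 C sites (clone A10, 4 cultures); ∆AOSN.COSN123, which lacks the OSN site of A and the 3 C sites (clones A6 and B6); and ∆A.COSN12, which lacks A but keeps C OSN3 (clones A3 and D6). Their deletions also lie on musculus and their CAST homologs are unmodified. The 4 ∆A.COSN123 clones were made from the ∆COSN123 line, of which the study recovered 1 clone (A10), so they are separate events of the A deletion that share the C deletions and the history of 1 parent clone. Another labelled clone (F4) of ∆AOSN.COSN123 was not analysed here.

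Mammalian chromosomes replicate in large domains whose firing time in S phase is a stable trait of a cell type. Early replication control elements (ERCEs) are stretches of DNA whose loss makes such a domain replicate later, and in stem cells the core of these elements is bound by the pluripotency factors Oct4, Sox2 and Nanog (OSN). The Dppa2/4 domain holds 3 of them, named A, B and C from left to right. It replicates early in embryonic stem cells, where Dppa2 and Dppa4, DNA-binding proteins that activate genes of the early embryo, are expressed.

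The deleted stretches were placed on mm10 (GRCm38) by matching the study's guides to the genome and taking the Cas9 cut 3 bases from the PAM. Element A was removed at chromosome 16, 48308248 to 48311866 (3619 bp), inside Dppa2, a stretch with 2 coding exons and the start of 1 Dppa2 transcript. C OSN3 (48606321 to 48607163, 843 bp), C OSN2 (48608216 to 48608754, 539 bp) and C OSN1 (48613172 to 48614742, 1571 bp) lie in introns of Morc1 and overlap no annotated exon. The 3 C sites together span 2.953 kb of removed sequence and all fall in the RT window 48.60 to 48.65 Mb, whereas A falls in the window 48.30 to 48.35 Mb, 300 kb to the left. Element B (48396808 to 48443056), with the starts of Morc1 and Gm5485, stayed in place between them. The guides that set this genotype apart from its relatives are those of A, absent from ∆COSN123, and those of C OSN3, absent from ∆A.COSN12. They are given with the PAM in capitals.
A guide 1, minus strand, chr16:48308242-48308264: gggttaatgtgactgggcagTGG
A guide 2, minus strand, chr16:48311861-48311883: gtgcacctttaaccagctgcAGG
C OSN3 guide 1, plus strand, chr16:48606304-48606326: cagcctgttgaattgacagaAGG
C OSN3 guide 2, plus strand, chr16:48607147-48607169: tctcttccctgtgccgtaagTGG
Each guide matched chromosome 16 exactly once. The table holds ratios and no reads, so the loss of these bases itself could not be checked in it.

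Libraries differed in how much of the genome they covered. Over the autosomes a value was present in 91.0% of windows on the deleted allele of clone B7, 86.4% in D8, 86.2% in H10 and 77.5% in C9. The windows without a value in C9 were mostly late ones, since its median RT was 0.23 against −0.11 to 0.01 in the other clones. In the region from 46.5 to 50.5 Mb of chromosome 16, C9 had deleted-allele values in 62 of 80 windows and B7 in 77. How many reads a value rests on is unknown, and the error given is the spread between clones. Because the profiles were loess-smoothed over 300 kb, which is also the distance from A to the C sites, neighbouring windows are not independent.

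The deletion left a later but still peaked domain. At the window of A, over Dppa2, the deleted allele had RT values of 0.21 in B7, 0.35 in C9, 0.39 in D8 and 0.30 in H10, against 1.16, 1.14, 1.08 and 1.14 on the CAST allele. At the window of the C sites, in the body of Morc1, the deleted allele was at 0.04, 0.08, 0.02 and −0.01 and the CAST allele at 0.85, 0.77, 0.78 and 0.78. At both windows every deleted allele lay below every CAST allele. Between 48 and 49 Mb the deleted allele was above 0 in 8 or 9 of 20 windows per clone, and the CAST allele in 16 to 20. The earliest window of the deleted allele was 48.40 to 48.45 Mb in B7 (0.30), C9 (0.43) and D8 (0.53) and 48.35 to 48.40 Mb in H10 (0.42). These 2 windows hold element B. The earliest window of the CAST allele lay between 48.30 and 48.45 Mb, at 1.27 in B7, 1.14 in C9, 1.41 in D8 and 1.32 in H10, so the summit stayed within 100 kb of its place and was lower.

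**Figure D1:**
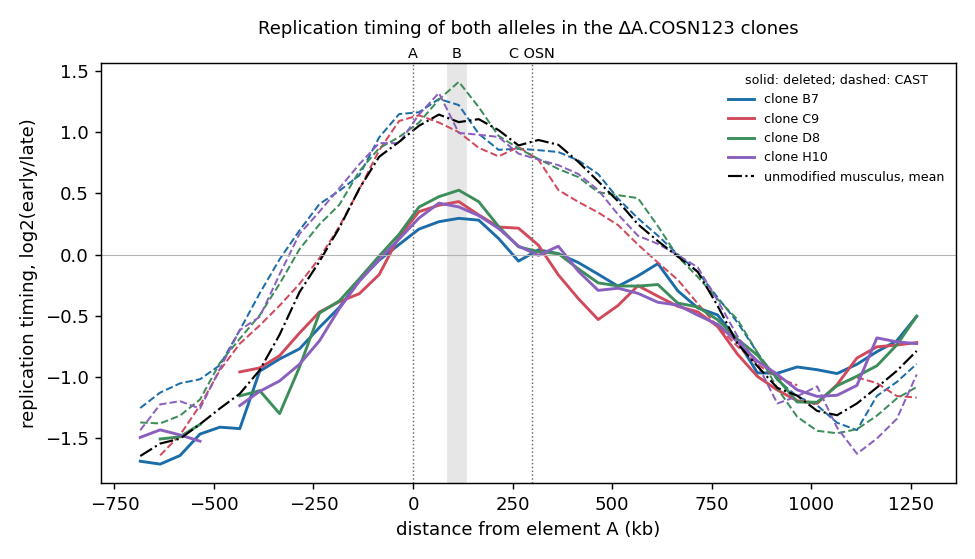
RT, log2(early/late), of the deleted musculus allele (solid) and the CAST allele (dashed) of each ∆A.COSN123 clone against the distance from element A in kb, with the mean of the unmodified musculus alleles of 2 other clones (dash-dotted). Dotted lines mark A and the C OSN sites and the grey band marks B. At A the 4 deleted alleles lie between 0.21 and 0.39 and the CAST alleles between 1.08 and 1.16.

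The delay, taken as the deleted allele minus the CAST allele of the same clone, formed a plateau from the left of Dppa4 to beyond Trat1 instead of a peak at either element. Its mean was lowest in the window 48.20 to 48.25 Mb, 100 kb left of the A window and 400 kb left of the C window, with differences of −1.002 in B7, −1.01 in C9, −0.88 in D8 and −0.95 in H10 (mean −0.96 ± 0.06, SD, n = 4). At the A window the differences were −0.95, −0.79, −0.69 and −0.84 (−0.82 ± 0.11). Between the elements the mean rose to −0.67 ± 0.09 in the window 48.45 to 48.50 Mb. At the C window the differences were −0.81, −0.70, −0.76 and −0.78 (−0.76 ± 0.05), and a second low of −0.81 ± 0.06 followed at 48.75 to 48.80 Mb, over Trat1. The mean over the windows from A to C was −0.86 in B7, −0.64 in C9, −0.78 in D8 and −0.76 in H10.

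The delays at A and at C differed by less than the spread between clones. The difference at A minus the difference at C was −0.14 in B7, −0.09 in C9, 0.07 in D8 and −0.06 in H10 (−0.06 ± 0.09), with A more delayed in 3 of 4 clones and a mean of −0.03 without B7 and −0.10 without D8 (exact two-sided sign-flip test, p = 0.375; with 4 clones this test cannot go below 0.125). The lowest window was also not at a fixed place. It was 48.25 to 48.30 Mb in B7 (−1.06), 48.20 to 48.25 Mb in C9 (−1.01), 47.95 to 48 Mb in D8 (−1.06) and 48 to 48.05 Mb in H10 (−1.06), which is 50 to 350 kb left of the A window in every clone. Without C9, the lowest window of the mean moved to 48 to 48.05 Mb. There C9 was at −0.40 and the other clones between −0.96 and −1.06, and the SD over the 4 clones was 0.30, compared with 0.03 at 48.70 to 48.75 Mb.

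The side on which the delay was largest depended on the control. The labels give 2 clones whose deletion lies on CAST and whose musculus allele is unmodified (∆CTSS clone C4 and ∆CR11.8k clone 50). Their mean RT was 0.80 in the window 48.20 to 48.25 Mb and 0.93 in the C window, close to the CAST mean of 43 clones there (0.85 and 0.86). On the left shoulder it was lower, at −0.31 against 0.06 in the window 48 to 48.05 Mb and at −0.94 against −0.42 in the window 47.90 to 47.95 Mb. Measured against these unmodified musculus alleles, ∆A.COSN123 was lowest at 48.70 to 48.75 Mb (mean −0.93), 100 kb right of the C window. By clone, the lowest window was then 48.55 to 48.60 Mb in B7, 48.75 to 48.80 Mb in C9 and 48.60 to 48.65 Mb in D8 and H10, all from 50 kb left to 150 kb right of the C window. The difference at A minus that at C turned to 0.16, with values of 0.05, 0.16, 0.25 and 0.19, so that C was then the more delayed in all 4 clones. All 4 values rest on the same control mean. Against the mean CAST profile of all clones the difference at A minus that at C was 0.14. Both controls gave a delay of similar depth, −0.74 at A and −0.90 at C against unmodified musculus. At A and C, unmodified musculus minus the CAST mean of 43 clones was 0.05 and 0.07. The CAST alleles of the ∆A.COSN123 clones had means of 1.13 at A and 0.80 at C, against 0.996 and 0.86 in the 43 clones. Their part in the change of side was not tested.

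**Figure D2:**
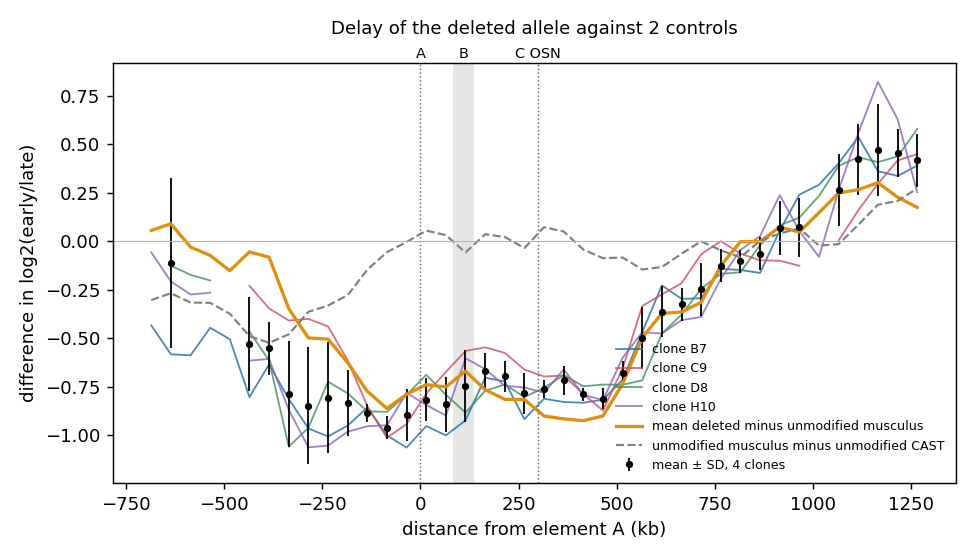
Difference in RT, log2(early/late), against the distance from element A in kb, for each clone's deleted minus CAST allele (thin lines), their mean ± SD where all 4 clones have a value (points), the mean deleted minus unmodified musculus allele (thick line) and unmodified musculus minus unmodified CAST (dashed). The delay is a plateau of −0.67 to −0.96 between 48.15 and 48.85 Mb. The 2 controls part on the left shoulder, where unmodified musculus is itself later than CAST, and also at C. In the C window the mean is −0.76 against CAST and −0.90 against unmodified musculus.

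Window by window, limma with Benjamini-Hochberg adjustment over all autosomal windows called 24 consecutive windows later on the deleted allele, from 47.85 to 49.05 Mb (mean difference −0.70). In the window 48.20 to 48.25 Mb the adjusted p was 1.58e-05. In the whole region 29 of 59 tested windows were called later and 19 earlier. These counts have a high background, since musculus and CAST differ in RT along the genome, and 14.62% of 34967 windows were called later and 14.43% earlier. The 24 windows were the 14th longest of 1211 such runs. Against unmodified musculus alleles the background was far lower, at 0.605% of 36876 windows called later and 0.100% called earlier. In the region 17 of 60 tested windows were then called later, all consecutive from 48.05 to 48.90 Mb (mean difference −0.76, adjusted p = 0.0083 at 48.20 to 48.25 Mb and at the C window), and none was called earlier, where 3 were at an unadjusted p under 0.05. This run was the longest of 87 runs called later on the autosomes in that comparison, the next holding 10 windows. That fit compares 4 clones with 2 and leaves out the pairing of alleles within a clone.

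Of 14 coding genes in the region, 11 lie between 47.5 and 49.5 Mb, and 10 of these sat wholly in windows called later than on CAST. In that comparison 14.62% of all autosomal windows tested were called later. The 10 genes are neighbours in the run from 47.85 to 49.05 Mb, so they are not independent. Dppa4 (48283733 to 48294237) had differences of −1.06, −0.94, −0.79 and −0.78 (−0.90 ± 0.13) and Dppa2 (48303908 to 48319723), in the A window, −0.82 ± 0.11. Gm5485 was at −0.79 ± 0.14. Morc1 (48431237 to 48630900), which encodes an ATPase that silences transposons in the male germ line and spans B to C, had −0.82, −0.61, −0.79 and −0.71 over its 5 windows (−0.73 ± 0.09). Trat1, a T cell receptor adaptor right of the C sites, had the narrowest spread, with −0.83, −0.83, −0.74 and −0.81 (−0.80 ± 0.04). The resistin-like genes followed with smaller values, −0.68 ± 0.06 in the window shared by Retnlb and Retnla and −0.50 ± 0.16 at Retnlg. Dzip3, a ubiquitin ligase gene, was at −0.34 ± 0.10 and Cip2a, an inhibitor of the phosphatase PP2A, at −0.29 ± 0.11. The delay ended over the myosin gene Myh15 (−0.10 ± 0.04), none of whose windows was called. Against unmodified musculus, 8 of the 11 genes lay wholly in windows called later, all from Dppa4 to Retnlg, and Dzip3 and Cip2a did not. Of all autosomal windows tested against unmodified musculus, 0.605% were called later.

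Right of the domain the sign turned. Ift57, needed to build cilia, was earlier on the deleted allele by 0.59 in B7, 0.55 in C9, 0.68 in D8 and 0.60 in H10 (0.61 ± 0.06), and Cd47, a surface signal against phagocytosis, by 0.52, 0.20, 0.65 and 0.51 (0.47 ± 0.19). Unmodified musculus was earlier than CAST there too, by 0.38 over Ift57 and 0.37 over Cd47. Against unmodified musculus the deleted allele differed by 0.07 at Ift57 and 0.03 at Cd47, and no window was called. The gene Bbx, further right, was at 0.18 ± 0.05. On the left no coding gene lies in the region before Dppa4, and Nectin3, just outside it, was at −0.23 ± 0.14.

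As a summary, the area between the alleles (∆area, the sum of differences over the windows from 47.5 to 49.5 Mb by the trapezoid rule, in log2 units times windows) was −20.15 in B7, −13.2 in C9, −17.0 in D8 and −17.8 in H10. The mean was −17.0 ± 2.88 (n = 4), later in 4 of 4 clones (exact two-sided sign-flip test, p = 0.125, the smallest it can give). C9 was the least delayed. It lacks some values left of 47.85 Mb, but was also the least delayed over 48 to 49 Mb alone. There it had a value in every window, and the clones were closer (−15.4, −12.3, −14.3 and −14.6). In the window 48 to 48.05 Mb the CAST allele of C9 was at −0.24, against 0.20 in B7, 0.04 in D8 and 0.17 in H10. Against unmodified musculus ∆area was −14.4, −13.5, −14.0 and −14.6 (−14.1 ± 0.50). The same control mean of 2 clones was subtracted from all 4 clones there. That SD therefore holds no spread of the control, unlike the SD against CAST. Against CAST, the stretch with at least 50% of the lowest value was 1000 kb wide in B7, D8 and H10 and 750 kb in C9.

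The question of what the A deletion adds was addressed with the parent genotype ∆COSN123. At the A window its 4 cultures had differences of −0.48, −0.60, −0.30 and −0.28 (−0.42 ± 0.15), all smaller than in every ∆A.COSN123 clone. The genotypes differed there by −0.40 (exact two-sided permutation test, p = 0.0286, the smallest for 4 against 4; adjusted p = 0.0800 over 6 comparisons at A and C). At the C window the parent had −0.60 ± 0.20, and the difference of −0.16 was within the spread of its cultures (exact permutation test, p = 0.229). Part of the gap at A lay on the CAST alleles, which were at 1.13 ± 0.04 in ∆A.COSN123 and 0.91 ± 0.11 in the parent, without overlap (exact permutation test, p = 0.0286; adjusted p = 0.133 over 6 comparisons). The deleted alleles by themselves were at 0.31 ± 0.08 and 0.49 ± 0.11, a gap of −0.18 with overlapping samples (exact permutation test, p = 0.0857). At the C window the deleted alleles were nearly level, at 0.03 ± 0.03 in ∆A.COSN123 and 0.08 ± 0.11 in the parent. The 4 cultures of the parent are repeats of 1 clone, so its spread is that between cultures and these p-values count 1 clone as 4 samples. With the cultures averaged into 1 value, an alternative added after seeing the data, the exact permutation test gave p = 0.200 at A, the smallest for 4 against 1.

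Against the CAST allele, the parent's mean was lowest at 48.75 to 48.80 Mb, right of C (−1.21 ± 0.39), where ∆A.COSN123 had −0.81 ± 0.06. Culture 2 of the parent was lowest at 48.20 to 48.25 Mb instead, the window where the mean of ∆A.COSN123 was lowest. Against unmodified musculus both genotypes had their lowest mean in the same window, 48.70 to 48.75 Mb, at −1.001 in the parent and −0.93 in ∆A.COSN123. At 48.75 to 48.80 Mb too the deleted alleles were close, at −0.36 ± 0.11 in the parent and −0.30 ± 0.16 in ∆A.COSN123, while the CAST alleles were at 0.84 ± 0.40 and 0.51 ± 0.13. Between these 2 genotypes limma called no window of the 51 tested in the region (0% of 29359 windows later and 0.00341% earlier on the autosomes). At an unadjusted p under 0.05, 10 windows of the region were later in ∆A.COSN123, from 48 to 48.45 Mb and at 48.55 to 48.60 Mb, against 3.98% of all windows, and 6 were earlier, right of C and near Ift57, against 4.18%. The largest of the 10 was at 48.35 to 48.40 Mb (−0.45 ± 0.09, SE; adjusted p = 0.311). These counts and the SE take the 4 cultures of the parent, which are 1 clone, as 4 samples.

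**Figure D3:**
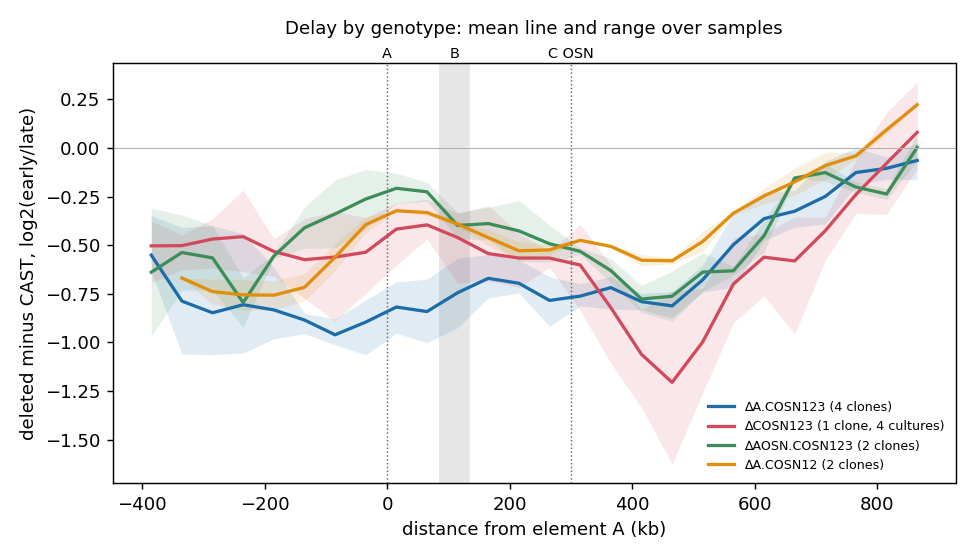
Deleted minus CAST allele, log2(early/late), against the distance from element A in kb for 4 genotypes, as the mean (line) and the range over samples (band). At A, ∆A.COSN123 is at −0.82 and the other 3 genotypes between −0.21 and −0.42, and right of C the parent ∆COSN123 reaches −1.21.

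Loss of the OSN site of A in place of the whole element went with differences nearer 0 at A and at C, which 4 against 2 samples cannot bring past the threshold. Over the 6 windows from 48 to 48.30 Mb the mean was −0.49 ± 0.17 in ∆AOSN.COSN123 and −0.87 ± 0.12 in ∆A.COSN123. Against unmodified musculus the means over these windows were −0.36 and −0.68. Among the 6 windows, 48.05 to 48.10 Mb was level against CAST, at −0.80 in ∆AOSN.COSN123 and −0.81 in ∆A.COSN123. In ∆AOSN.COSN123 the A window differed by −0.13 in A6 and −0.29 in B6, 0.61 less delayed than ∆A.COSN123. Part of this gap lay on the CAST alleles, at 0.90 ± 0.03 in ∆AOSN.COSN123 and 1.13 ± 0.04 in ∆A.COSN123. The deleted alleles were at 0.75 and 0.64, both above every ∆A.COSN123 clone, with a gap of −0.39 between the means. The C window differed by −0.52 and −0.55. Exact permutation tests gave p = 0.0667 at both windows, the smallest for 4 against 2, with an adjusted p of 0.0800. The difference at A minus that at C was 0.32 ± 0.09, compared with −0.06 ± 0.09 (exact permutation test, p = 0.0667, adjusted p = 0.100 over 3 pairs). By limma no window of the region was called (0% of all windows in either direction). At an unadjusted p under 0.05, 10 windows from 48.10 to 48.60 Mb were later in ∆A.COSN123 and none earlier (1.85% and 1.88% of all windows). The largest gap was −0.63 ± 0.13 (SE; adjusted p = 0.498) at 48.25 to 48.30 Mb, over Dppa4.

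Where C OSN3 was kept, in ∆A.COSN12, the differences were nearer 0 at both elements. The A window differed by −0.32 and −0.33 in clones A3 and D6 and the C window by −0.48 and −0.47, with deleted alleles at 0.82 and 0.76 at A and 0.61 and 0.49 at C. The CAST alleles at C were also higher in ∆A.COSN12, at a mean of 1.02 against 0.80. All 4 ∆A.COSN123 clones lay below both at either window (exact permutation test, p = 0.0667, again the smallest for 4 against 2, adjusted p = 0.0800). Left of A both genotypes were delayed, with a mean over the 6 windows from 48 to 48.30 Mb of −0.65 in ∆A.COSN12 and −0.87 in ∆A.COSN123. Unmodified musculus was itself later than CAST over these windows (−0.20). Against unmodified musculus the means were −0.36 in ∆A.COSN12 and −0.68 in ∆A.COSN123. By limma no window of the region was called (0% of all windows later, 0.00341% earlier). At an unadjusted p under 0.05, 8 windows were later in ∆A.COSN123 and none earlier (2.89% and 3.15% of all windows). Between the deleted alleles alone, limma called 5 windows of the region later in ∆A.COSN123 and none earlier (none at an unadjusted p under 0.05 either), where 0.680% of all windows were called later and 0.0372% earlier. The deleted alleles of ∆A.COSN12 had values in 78.4% and 73.8% of windows and a median RT of 0.21 and 0.31, above the ∆A.COSN123 clones other than C9, and the part of this in the levels was not tested.

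Ordered by the level of the deleted allele at A, the genotypes ran from ∆A.COSN123 (0.31) through ∆COSN123 (0.49) and ∆AOSN.COSN123 (0.70) to ∆A.COSN12 (0.79), and at C the order was the same (0.03, 0.08, 0.27 and 0.55). At both windows the first 2 overlapped, and the last 2, with 2 clones each, did not. By ∆area ∆A.COSN123 exceeded ∆COSN123 (−14.3 ± 2.123) by −2.72, ∆AOSN.COSN123 (−12.9 ± 4.92) by −4.14 and ∆A.COSN12 (−10.55 ± 1.78) by −6.49. These differences did not pass exact two-sided permutation tests (p = 0.200, 0.267 and 0.0667, adjusted over the 3 pairs 0.267, 0.267 and 0.200). Single samples moved these gaps. The gap to ∆COSN123 was −4.00 without C9 (exact permutation test, p = 0.0286 with 4 cultures of 1 clone as samples), −1.69 without B7 and −1.71 without culture 3 of the parent. With the cultures averaged into 1 value the exact permutation p over all 4 clones was 0.600. The gap to ∆AOSN.COSN123 was −0.66 without clone A6 and −7.62 without clone B6 of that genotype. Against unmodified musculus ∆area was −13.48 to −14.6 in the 4 ∆A.COSN123 clones. It was −10.32 to −12.11 in the ∆COSN123 cultures, −10.77 to −12.7 in ∆AOSN.COSN123 and −3.72 to −5.76 in ∆A.COSN12. No sample of these other genotypes reached the range of ∆A.COSN123. All values share 1 mean control profile, the cultures are 1 clone, and these gaps were not tested.

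**Figure D4:**
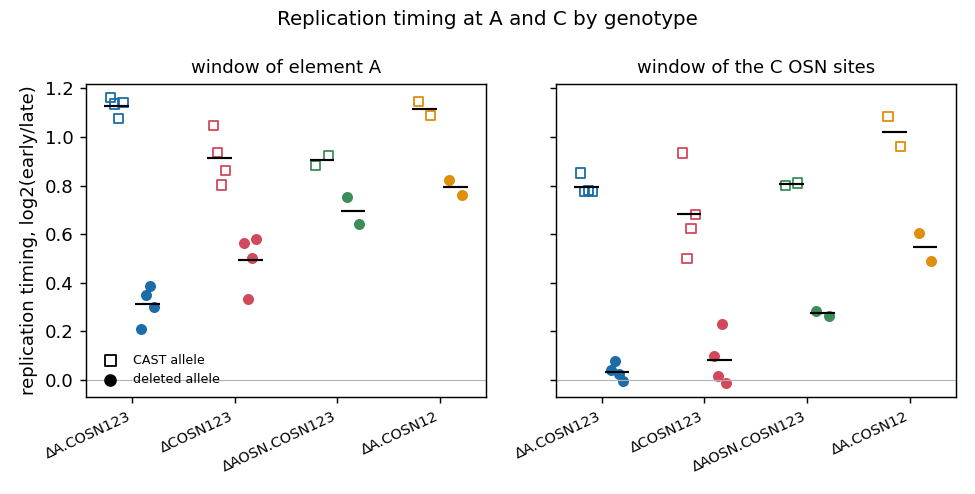
RT, log2(early/late), of the CAST allele (squares) and the deleted musculus allele (circles) in the windows of A and of the C OSN sites, 1 symbol per sample with the mean as a line, for the 4 genotypes. At A the deleted alleles of ∆A.COSN123 (0.21 to 0.39) lie below those of ∆AOSN.COSN123 and ∆A.COSN12 and overlap those of ∆COSN123, and at C the first 2 genotypes lie near 0.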

How the data were processed

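Per the study's methods, the authors trimmed reads (Trim Galore, cutadapt), aligned them to N-masked mm10 with bowtie2, assigned them to homologs with SNPsplit, removed duplicates, counted 50 kb windows (bedtools) and deposited log2 values of early over late reads, scaled, quantile-normalized and loess-smoothed over 300 kb. Versions are not given in the sources used here and depth is unknown. Of 138 columns, 69 were read and 69 were not used.

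Members, elements and tests were chosen with earlier results of these data known. Differences were deleted minus CAST allele within a clone. limma 3.58.1 (R 4.3.3) tested each autosomal window with a value in every sample (threshold 0.05, Benjamini-Hochberg). It was also run on simulated data drawn independently for each window, which lack the smoothing of the real profiles. Area, A and C were compared by exact sign-flip or permutation tests over samples, coded in Python 3.11.15 with numpy 2.4.6 and pandas 2.3.3. The tests at A and at C singly were added later. Genes named are the coding genes of 47.5 to 49.5 Mb, the nearest on either side, Ift57 and Cd47, by GENCODE vM21 on mm10. Bbx was named after its value was seen. p-values measure the spread between clones or cultures.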

Additional observations from a re-analysis of the deposited data

Results flagged for a closer look

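Of 31 sets of 4 values searched for a sample far from the others (by Dixon's ratio of the gap to the range, whose limit chance passes in about 1 set of 20), 3 were found. Clone C9 had the least negative lowest difference of ∆A.COSN123, at −1.01 against −1.06 in the other 3 (ratio 0.905). C9 also had the narrowest stretch of delay, 750 kb against 1000 kb (ratio 1.000), and the fewest windows with a value (77.5%). Culture 2 of ∆COSN123 had its lowest window at 48.20 to 48.25 Mb, 550 kb left of the other 3 cultures at 48.75 to 48.80 Mb (ratio 1.000). Widths and positions come in steps of 50 kb. A ratio of 1.000 arises whenever the other 3 values tie, so the rate of 1 set in 20 does not hold there.

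The difference at the A window was −0.82 in ∆A.COSN123 and −0.42 in ∆COSN123 (exact permutation test, p = 0.0286), lower in 4 of 4 clones than in any culture of the parent. It did not pass after adjustment over 6 comparisons (exact permutation test, adjusted p = 0.0800), and with the cultures, which are 1 clone, averaged into 1 value the exact permutation p was 0.200.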

How the results depend on the processing

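The ∆area of ∆A.COSN123 (−17.04) kept its sign under all alternatives: it was −14.1 against unmodified musculus alleles, −14.15 over 48 to 49 Mb and −11.95 over 46.5 to 50.5 Mb, and −16.0 to −18.3 without 1 clone. The position of the largest delay (48.2 Mb, window start) moved to 48.7 Mb against unmodified musculus, 48.75 Mb against the mean CAST profile and 48.36 Mb as a centre of mass, and was 48 Mb without C9 and 48.2 Mb without any other clone. The difference at A minus that at C (−0.06) reversed to 0.16 and 0.14 with those controls, and was −0.03 to −0.10 without 1 clone. For the 6 windows left of A minus the 5 right of C, chosen after seeing the data, it was −0.17, and 0.12 against unmodified musculus. Windows called later in the region (29) fell to 17 against unmodified musculus. The gap in ∆area to ∆COSN123 was −2.36 against the mean CAST profile (exact permutation p = 0.0286). That p was not adjusted over the 3 pairs and takes 4 cultures of 1 clone as samples. Against the CAST allele of the same clone, the gap ranged from −1.685 to −4.0 without 1 sample (exact permutation p = 0.0286 without C9, with the same limits). With the 4 cultures of that clone averaged into 1 value its exact permutation p was 0.600, and that of the difference at A was 0.200. The gap to ∆AOSN.COSN123 ranged from −0.66 to −7.62 without 1 sample and that to ∆A.COSN12 from −5.23 to −7.76. Windows later than in ∆AOSN.COSN123 (0) became 3 when only chromosome 16 was adjusted for (0.299% of its windows), and windows later than in ∆A.COSN12 (0) became 5 when deleted alleles were compared directly, where 0.680% of all windows were called later and 0.0372% earlier. No paired analysis was possible because the ∆A.COSN123 clones carry no replicate numbers in the labels, and both alleles of a clone are already paired.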
